A study of Mus musculus with 8 samples.

Results

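The genes that encode axon guidance ligands and receptors were followed in mouse anterior neural progenitor cells (AntNPC), which are made in culture from embryonic stem cells and serve as a model of early forebrain tissue. Members were taken by symbol from the deposited table: ephrins (Efna, Efnb), Eph receptors (Epha, Ephb), semaphorins, plexins, neuropilins, Slit1 to Slit3, Robo receptors, netrins, Dcc and Unc5 receptors. Plexins were taken as Plxn with a letter and number and Unc5 receptors as Unc5 with a letter, and Epha7 was not used. The rule gave 67 members among 46406 table entries. Of these, 49 had a mean of at least 1 FPKM (fragments scaled by gene length and by the mapped total of the library) over the 8 libraries, which was needed for ratios and tests. The members nearest to that limit were Robo2 at 1.03 and Sema4f at 1.09 FPKM on the upper side, and Sema4a at 0.926 and Epha8 at 0.913 FPKM on the lower side.

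These families tell growing axons and migrating cells where to go, through contact or as secreted cues. Ephrins bind Eph receptors on the next cell, semaphorins bind plexins, with neuropilins as co-receptors for most secreted semaphorins, Slits bind Robo receptors, and netrins bind DCC and UNC5 receptors. In the early neural plate the same molecules are known for cell sorting and boundary formation before any axon has grown.

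The poly(A) RNA libraries came from 3 lines of E14 mouse embryonic stem cells. Clone 1 and clone 2 are homozygous for a CRISPR-Cas9 deletion of the poised enhancer PE Lhx5(-109), which is named for the LIM homeobox gene Lhx5, and gave 2 libraries each; WT cells gave 4. Every line was differentiated in the same way without serum or LIF, first in N2B27 with bFgf and later with Xav939, which blocks WNT signalling. The samples are labelled biological replicates, so p-values within a line measure the spread between such replicates. Each null line is a single clone, and the sources used here do not say whether the WT cells passed through transfection and single-cell cloning. An effect of the deletion and a difference that arose when a clone was derived therefore cannot be told apart in a comparison of 1 clone with WT.

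Lhx5 stood at 1.24 and 0.854 FPKM in clone 1 and at 1.90 and 1.26 FPKM in clone 2, against 15.0 to 17.5 FPKM in WT, so every null library was below every WT library. The FPKM of a library added up to 518491 at the lowest and 528726 at the highest, and read depth per library was not analysed here. Clone 1 replicate 2 stood apart from the others: the non-polyadenylated RNA Rn7sk had 250.2 FPKM there, against 8.05 to 28.4 FPKM in the other 7 libraries, and its median ratio to the average library was 0.941, against 1.00 to 1.02. All 10 neural progenitor markers were detected, with summed levels of 426 to 463 FPKM in clone 1, 501 to 553 FPKM in clone 2 and 483 to 505 FPKM in WT. Of 9 neuronal markers in the table, 7 reached a mean of 1 FPKM, with sums of 81.2 to 90.6 FPKM in clone 1, 80.3 to 81.6 FPKM in clone 2 and 92.1 to 96.8 FPKM in WT, while the migrating-neuron marker Dcx was at most 0.162 FPKM in any library. All 8 endothelial and blood markers were under 1 FPKM in every library, and Emcn and Ptprc were listed at 0 in all of them.

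In WT cells the guidance genes spanned receptors and ligands at similar heights. The highest was Plxnb2, a receptor for class 4 semaphorins, with 54.0 and 50.2 FPKM in clone 1, 48.8 and 47.0 FPKM in clone 2, and 50.7, 51.6, 46.8 and 49.6 FPKM in WT replicates 1 to 4. Each clone overlapped WT, and limma found no difference from WT past the threshold (adjusted p = 0.396 in clone 1 and 0.557 in clone 2, each against WT). Plxna1, a receptor that works with neuropilins, had 42.2 and 35.8 FPKM in clone 1, 40.8 and 46.0 FPKM in clone 2, and 40.3, 38.9, 39.3 and 37.7 FPKM in WT. Clone 1 overlapped WT and both clone 2 libraries lay above it, without passing the test. Netrin-1 (Ntn1), Efnb3 and Efnb2 completed the 5 highest of WT, with WT means of 39.5 ± 1.79, 34.6 ± 4.20 and 33.8 ± 1.51 FPKM (SD, n = 4). Efnb3 and Efnb2 lay within each other's spread in WT. In all, 21 members averaged over 10 FPKM in WT. Single genes carried most of several families: Ntn1 made up 98.5% of the summed netrin FPKM in WT and Nrp2 94.1% of the neuropilins. Epha4 made up 74.5% of the Epha receptors used, which leave out Epha7, whereas the largest share among semaphorins was 21.0%, for Sema3a. Together the members summed to 587 and 536 FPKM in clone 1, 660.2 and 682 FPKM in clone 2, and 644, 615, 629 and 628 FPKM in WT, or 0.102% to 0.130% of all FPKM. The WT libraries agreed closely for most members: the SD was 7.38% of the mean at the median tested member and at most 30.7%.

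**Figure D1:**
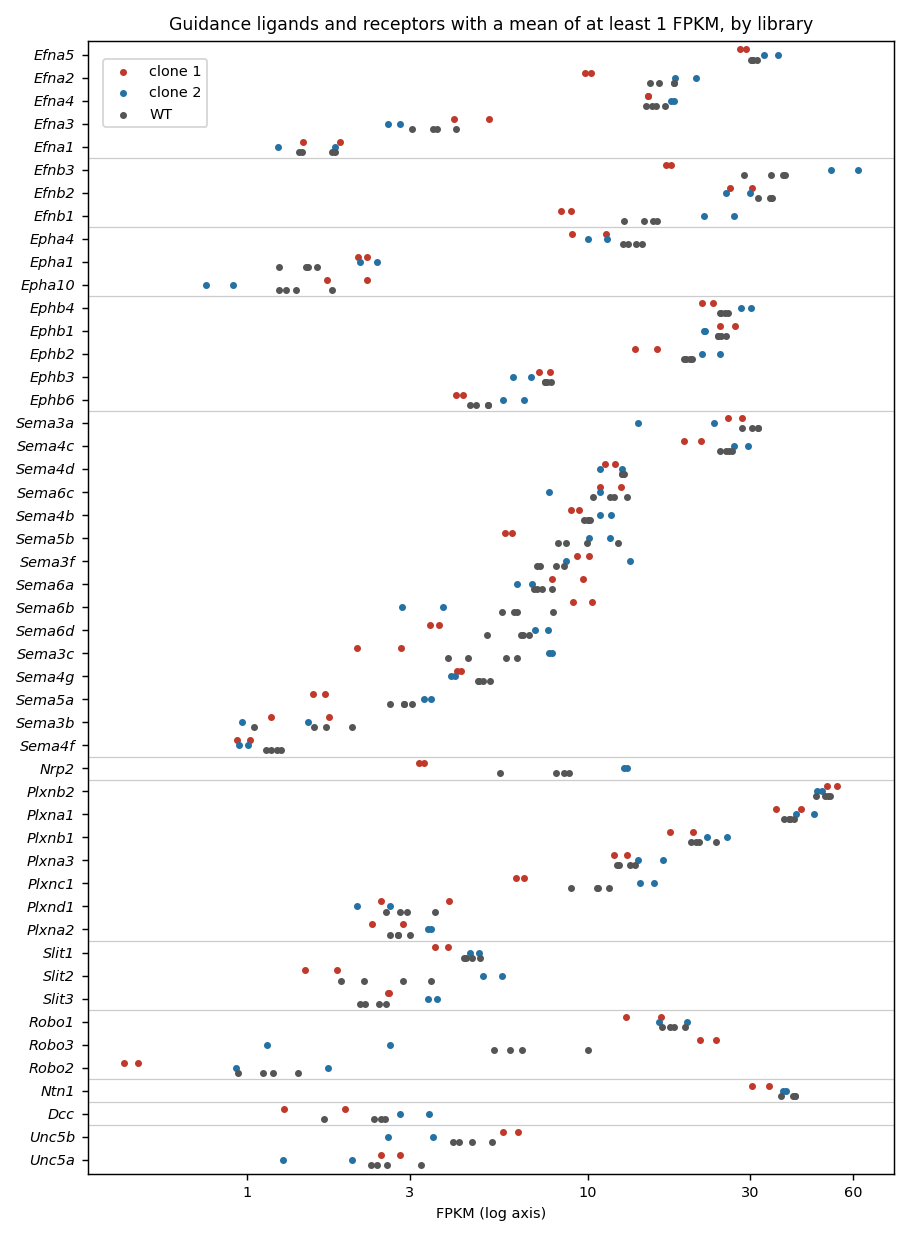
FPKM on a log axis of the 49 guidance genes with a mean of at least 1 FPKM, grouped by family and, within a family, ordered by level; each point is 1 library of clone 1 (red), clone 2 (blue) or WT (grey). Plxnb2, at about 50 FPKM in every line, sits at the high end with its lines close together, while the lines of Nrp2, Efnb3, Efnb1 and Robo3 are apart.

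Each null line departed from WT at guidance genes of several families. In clone 1, limma on log2(FPKM + 1), with p-values adjusted by the Benjamini-Hochberg method over all 14521 genes tested and a threshold of 0.05, called 17 of the 49 tested members against WT: 3 higher (6.12%) and 14 lower (28.6%). Over all tested genes, 4.16% were called higher and 11.4% lower. The median log2 difference was -0.15 over the members and -0.05 over all genes. In clone 2, 12 members were called against WT, 8 higher (16.3%) and 4 lower (8.16%), beside 7.06% higher and 6.96% lower among all genes. Here the medians were 0.13 over the members and 0.00 over all genes. After rescaling each library by its median ratio, the split in clone 2 was 11 higher and 10 lower. In clone 1, each of the 17 calls was kept after that rescaling. The shares of all genes under that scaling are not given here. Both comparisons use the same WT libraries, so their values are given side by side and not combined.

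In clone 1, more calls were lost without replicate 2 than without replicate 1, which ended those of Epha1, Robo2, Sema5b and Sema6b. Without clone 1 replicate 2, the library with high Rn7sk, 0 members were called higher and 4 lower, and those 4 (Efna2, Efnb1, Efnb3 and Sema5a) also passed in each of the other settings in which they were tested. Without clone 1 replicate 1 or WT replicate 3, 1 member was called higher, and without WT replicate 1 or 4, 0 were. In clone 2, leaving out replicate 2 ended all 12 calls, and leaving out replicate 1 gave 7 lower. Without WT replicate 2 or 3, 2 members were called lower, and without WT replicate 4 the counts were 5 higher and 1 lower. Shares of all tested genes are not given for these settings, so the members cannot be set beside the whole table there.

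**Figure D2:**
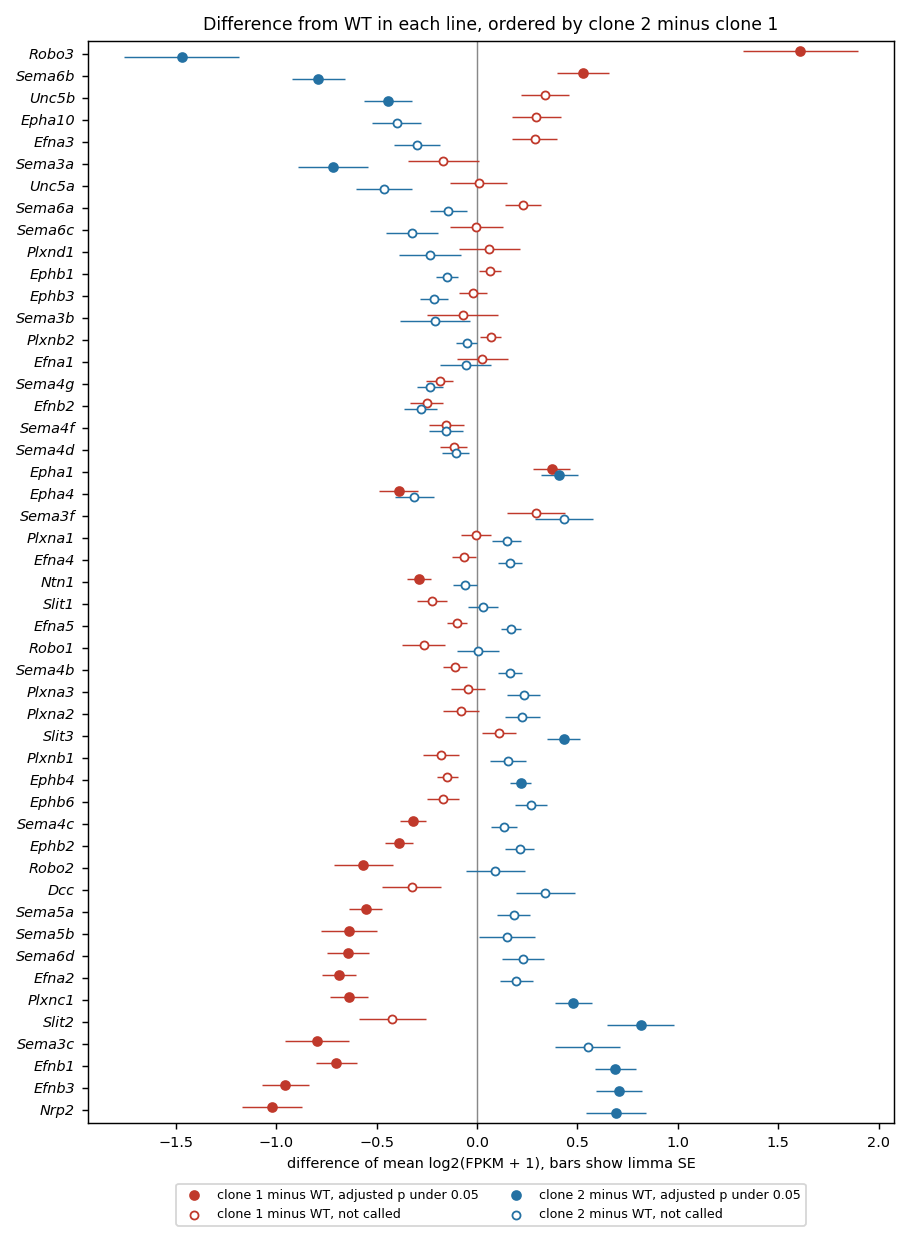
Difference of mean log2(FPKM + 1) from WT for the 49 tested guidance genes in clone 1 (red) and clone 2 (blue), with bars for the limma SE; filled points passed an adjusted p of 0.05 and open points did not, and genes run from the lowest clone 2 minus clone 1 difference at the top to the highest at the bottom. Robo3 lies at 1.61 in clone 1 and -1.47 in clone 2, and Nrp2 at -1.02 in clone 1 and 0.69 in clone 2.

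The null lines were then set against each other. Limma called 33 of 49 tested members between clone 2 and clone 1, of which 25 were higher in clone 2 (51.0%) and 8 lower (16.3%). The whole table moved too, with 39.9% of all tested genes called, 24.9% higher and 15.0% lower, and the median log2 difference was 0.23 over the members and 0.05 over all genes. Members with an absolute log2 difference over 1 numbered 8 of 49 (16.3%), beside 5.55% of all tested genes. After rescaling by the median ratio, 21 members were higher and 11 lower. For this and the settings that follow, the shares of all genes are not given here. The counts were 16 higher without clone 1 replicate 2, 5 lower without clone 1 replicate 1, and 14 higher and 4 lower without clone 2 replicate 2, and a fit of only these 2 groups called 15 higher and 5 lower. Of the 33 calls, 17 held in every setting in which the gene was tested. The other 16 were lost in at least 1 setting: Dcc, Efna3, Efna4, Efna5, Ephb1, Ephb6, Ntn1, Plxna2, Plxna3, Plxnb1, Robo2, Sema4b, Sema6a, Slit1, Slit3 and Unc5a.

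Among the ephrins, Efnb3 and Efnb1 differed most. Efnb3, a membrane-spanning ephrin known from the midline of the nervous system (chr11:69554092-69560205, GRCm38, minus strand), had 17.5 and 17.0 FPKM in clone 1, 51.9 and 62.0 FPKM in clone 2, and 37.3, 28.7, 37.8 and 34.5 FPKM in WT. Clone 1 was below every WT library and clone 2 above every one, with no overlap among the 3 lines. The log2 difference was -0.95 ± 0.11 in clone 1 (SE, limma adjusted p = 0.00375) and 0.71 ± 0.11 in clone 2 (adjusted p = 0.011), each against WT, and 1.66 ± 0.13 for clone 2 against clone 1 (adjusted p = 0.000235). Efnb1, the ephrin mutated in craniofrontonasal syndrome (chrX:99136130-99148991, plus strand), had 8.38 and 8.94 FPKM in clone 1, 21.9 and 26.8 FPKM in clone 2, and 16.0, 12.8, 14.7 and 15.5 FPKM in WT. It showed the same order with no overlap, at -0.70 ± 0.10 in clone 1 (limma adjusted p = 0.0058) and 0.69 ± 0.10 in clone 2 (0.00741). The clone 2 calls of both genes were lost without clone 2 replicate 2, at an adjusted p of 0.12 for Efnb3 and 0.0827 for Efnb1.

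Efnb2, the other B ephrin and the ligand of Ephb4 in blood vessels, had 30.4 and 26.1 FPKM in clone 1, 29.9 and 25.5 FPKM in clone 2, and 34.2, 34.8, 34.5 and 31.6 FPKM in WT. All 4 null libraries lay below all WT libraries, but neither line passed the test (clone 1 had an adjusted p of 0.0677 and clone 2 of 0.052). Efnb3 gave 31.9 ± 1.09% of the summed B ephrin FPKM in clone 1 and 52.1 ± 2.94% in clone 2 (SD, n = 2 each), against 41.5 ± 2.66% in WT (n = 4). The sum itself was 54.2 ± 3.003 FPKM in clone 1, 109.0 ± 7.51 FPKM in clone 2 and 83.1 ± 5.27 FPKM in WT.

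The A ephrins, which are tethered to the membrane by a lipid anchor, differed less. Efna2 had 10.2 and 9.85 FPKM in clone 1, 18.1 and 20.7 FPKM in clone 2, and 18.0, 15.2, 17.9 and 16.2 FPKM in WT. Clone 1 lay below all other libraries and clone 2 above all of them, and the log2 difference from WT was -0.69 ± 0.08 in clone 1 (limma adjusted p = 0.00346) and 0.20 ± 0.08 in clone 2 (adjusted p = 0.151). Efna5, the highest of the family, was called only in the comparison of clone 2 with clone 1, at 34.5 ± 2.30 FPKM in clone 2 and 28.5 ± 0.794 FPKM in clone 1 (adjusted p = 0.00753), and so was Efna4, at 17.7 ± 0.201 FPKM in clone 2 and 15.0 ± 0.00962 FPKM in clone 1 (adjusted p = 0.0282). Efna3 ran the other way, with 2.70 ± 0.166 FPKM in clone 2 and 4.58 ± 0.768 FPKM in clone 1 (adjusted p = 0.00801). Efna1, at 1.23 to 1.87 FPKM in the 8 libraries, passed no test.

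On the receptor side, differences were smaller than those of Efnb3 and Efnb1. Epha1, whose receptor binds A ephrins, had 2.25 and 2.12 FPKM in clone 1, 2.14 and 2.40 FPKM in clone 2, and 1.52, 1.49, 1.25 and 1.61 FPKM in WT, so that all null libraries were above all WT ones. It rose against WT in clone 1 (log2 0.37 ± 0.09, limma adjusted p = 0.0301) and in clone 2 (0.41 ± 0.09, adjusted p = 0.0247). The clone 1 call was lost without either of its replicates or WT replicate 1, 3 or 4 (adjusted p up to 0.102), and the clone 2 call without clone 2 replicate 2 or WT replicate 3 or 4 (up to 0.236). Epha4, an Eph receptor that binds ephrins of both classes, fell in clone 1 to 11.3 and 8.98 FPKM, against 12.7 to 14.4 FPKM in WT (log2 -0.39 ± 0.10, adjusted p = 0.029, up to 0.17 with 1 library left out). In clone 2 it stood at 11.4 and 10.0 FPKM, also below every WT library, without passing the test (adjusted p = 0.0619). Of the EphB receptors, Ephb2 fell in clone 1, to 14.8 ± 1.54 FPKM against 19.7 ± 0.487 FPKM in WT (adjusted p = 0.0122), and Ephb4 rose in clone 2, to 29.2 ± 1.40 FPKM against 25.0 ± 0.574 FPKM in WT (adjusted p = 0.0299, up to 0.288 with 1 library left out). Between the lines, Ephb2, Ephb4 and the kinase-inactive Ephb6 were higher in clone 2 than in clone 1 (adjusted p = 0.00108, 0.0022 and 0.00645), and Epha10 and Ephb1 were lower (adjusted p = 0.00509 and 0.0269). Ephb3 passed no test.

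Neuropilin-2 (Nrp2), a co-receptor for secreted semaphorins and for VEGF, showed the second largest gap between the null lines. It lies at chr1:62703285-62818695 on the plus strand of GRCm38. Its RefSeq promoter window (GRCm38.p6, chr1:62703067-62703366, plus strand, 250 bases before to 50 after the start) is shown because it is the only one of the matched members to hold the TCF/LEF core ATCAAAG or its reverse CTTTGAT, which stands in capitals and ends 139 bases before the start:
Nrp2 promoter: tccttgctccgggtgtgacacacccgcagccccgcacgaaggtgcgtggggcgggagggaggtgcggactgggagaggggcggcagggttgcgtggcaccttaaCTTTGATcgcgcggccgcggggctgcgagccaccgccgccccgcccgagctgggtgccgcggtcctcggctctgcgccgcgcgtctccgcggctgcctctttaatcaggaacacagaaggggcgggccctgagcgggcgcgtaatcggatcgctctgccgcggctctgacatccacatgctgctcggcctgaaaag
Nrp2 had 3.31 and 3.20 FPKM in clone 1, 12.8 and 13.1 FPKM in clone 2, and 8.80, 5.54, 8.06 and 8.53 FPKM in WT. The 3 lines did not overlap, and the replicates of a clone lay closer together than the WT libraries, of which replicate 2 was lowest. Log2 differences were -1.02 ± 0.15 in clone 1 (limma adjusted p = 0.00647) and 0.69 ± 0.15 in clone 2 (adjusted p = 0.0234), each against WT. Clone 2 exceeded clone 1 by 1.71 ± 0.17 on that scale, or 3.97 times in mean FPKM (adjusted p = 0.000423). The WT call in clone 1 was lost without clone 1 replicate 2 (adjusted p = 0.0604), and that in clone 2 without either of its replicates (adjusted p up to 0.203). Its relative Nrp1 was under the 1 FPKM limit and was not tested: it had 0.101 and 0.0978 FPKM in clone 1, 0.790 and 1.23 FPKM in clone 2, and 0.639, 0.251, 0.510 and 0.533 FPKM in WT.

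Among plexins, the receptors that semaphorins act through, Plxnc1 followed the order of Nrp2. It had 6.50 and 6.18 FPKM in clone 1, 14.3 and 15.6 FPKM in clone 2, and 11.6, 8.92, 10.6 and 10.7 FPKM in WT. No line overlapped another. The log2 difference from WT was -0.64 ± 0.09 in clone 1 (limma adjusted p = 0.00591) and 0.48 ± 0.09 in clone 2 (0.0175). Leaving out 1 library raised these p-values to at most 0.0537 in clone 1 and 0.185 in clone 2. Sema7a, which encodes the membrane semaphorin that Plxnc1 binds, was under the limit, at 0.285 to 0.489 FPKM in the 8 libraries. Plxna2, Plxna3 and Plxnb1 were called only between the null lines, each higher in clone 2 by 0.28 to 0.33 on the log2 scale, and each of these calls was lost in some settings. Plxna1, Plxnb2 and Plxnd1 passed no test.

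**Figure D3:**
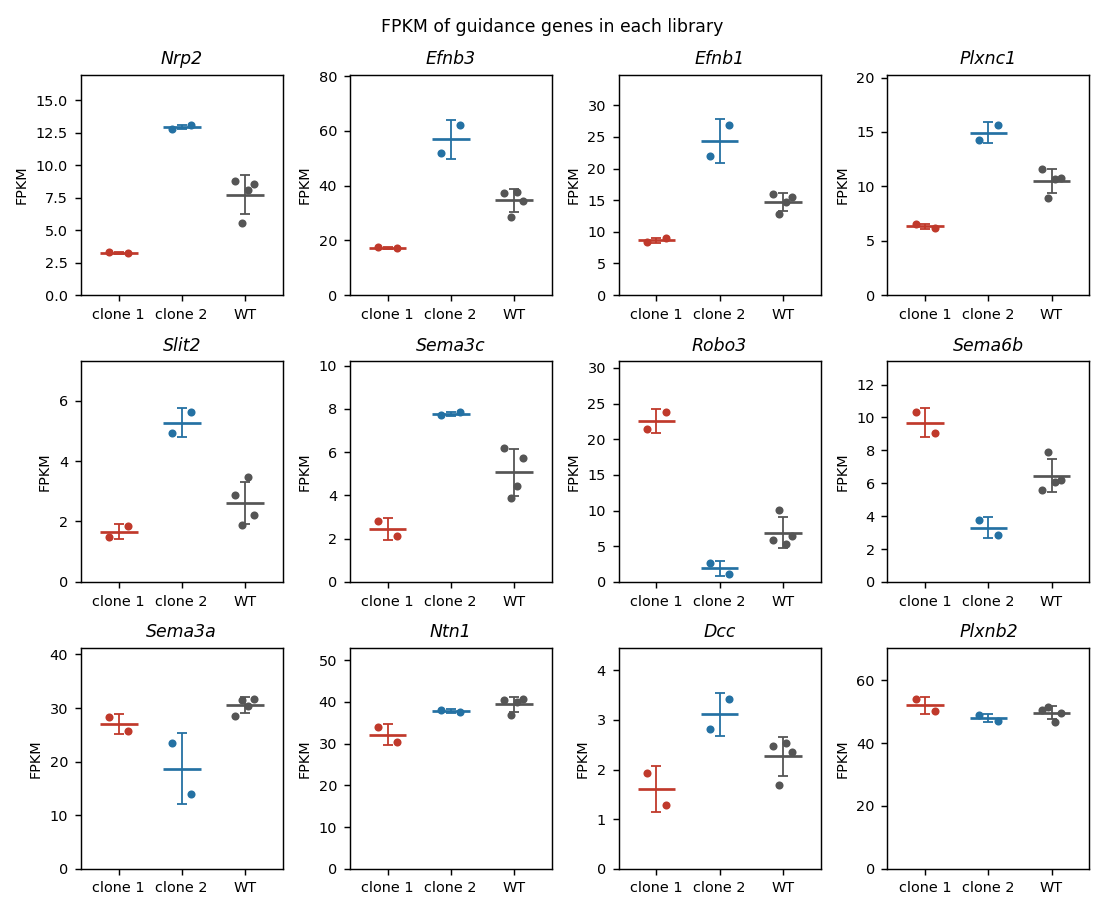
FPKM of 12 guidance genes in each library of clone 1 (red), clone 2 (blue) and WT (grey), with a line at the mean and bars of 1 SD; n = 2 for each clone and 4 for WT. Nrp2, Efnb3, Efnb1 and Plxnc1 run clone 1, WT, clone 2 from low to high, and Robo3 and Sema6b run the other way; for Plxnb2 each clone overlaps WT.

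Secreted semaphorins did not share a direction. Sema3c, which is known for guiding neural crest and callosal axons, had 2.83 and 2.11 FPKM in clone 1, 7.70 and 7.84 FPKM in clone 2, and 6.18, 3.88, 4.44 and 5.74 FPKM in WT. Both clone 1 libraries were below and both clone 2 libraries above all of WT; only the fall in clone 1 passed the test against WT (log2 -0.80 ± 0.16, limma adjusted p = 0.0165), with 0.55 ± 0.16 in clone 2 (adjusted p = 0.0548). Sema3a, the classical repellent that signals through Nrp1 and A plexins, was the most abundant semaphorin, with 28.4 and 25.7 FPKM in clone 1, 23.4 and 14.0 FPKM in clone 2, and 28.4, 31.5, 30.3 and 31.7 FPKM in WT. The clone 2 libraries were the lowest and differed widely from each other. Sema3a fell in clone 2 against WT (log2 -0.72 ± 0.18, adjusted p = 0.0415), a call lost in 9 of 15 alternative settings, including each single library left out except clone 2 replicate 1. Sema3f, the ligand most closely tied to Nrp2, had 10.1 and 9.30 FPKM in clone 1, 8.66 and 13.3 FPKM in clone 2, and 8.04, 7.08, 7.24 and 8.53 FPKM in WT, above WT in every null library but past the test in neither line (adjusted p = 0.195 and 0.0808). Sema3b, at 0.968 to 2.04 FPKM in the 8 libraries, passed no test.

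Of the transmembrane class 5 and class 6 semaphorins, all tested genes but Sema6c were called between the null lines. Sema6d fell in clone 1, to 3.67 and 3.44 FPKM, against 6.45, 5.05, 6.70 and 6.35 FPKM in WT, with 7.67 and 6.99 FPKM in clone 2 above all WT libraries. Its log2 difference was -0.64 ± 0.10 in clone 1 (limma adjusted p = 0.00845) and 0.23 ± 0.10 in clone 2 (adjusted p = 0.175), each against WT. Sema5a and Sema5b, whose products carry thrombospondin repeats, fell in clone 1 too: Sema5a to 1.63 ± 0.0935 FPKM against 2.87 ± 0.179 FPKM in WT (adjusted p = 0.00576), and Sema5b to 5.86 ± 0.213 FPKM against 9.77 ± 1.84 FPKM in WT (adjusted p = 0.0206). The Sema5b call was lost in 4 of 15 settings, and the Sema5a call was kept in all 14. Sema6b took the opposite course, with 10.3 and 9.06 FPKM in clone 1, 3.75 and 2.86 FPKM in clone 2, and 5.62, 7.89, 6.08 and 6.21 FPKM in WT. It was higher than WT in clone 1 (log2 0.53 ± 0.13, adjusted p = 0.0306) and lower in clone 2 (-0.79 ± 0.13, adjusted p = 0.0103), with no overlap. Leaving out 1 library raised those p-values to at most 0.119 in clone 1 and 0.125 in clone 2. Of class 4, which is transmembrane as well, Sema4c fell in clone 1 to 20.3 ± 1.63 FPKM against 25.6 ± 0.876 FPKM in WT (adjusted p = 0.0162). Between the null lines, Sema4b, Sema4c, Sema5a, Sema5b, Sema6d and Sema3c were higher in clone 2 and Sema6a and Sema6b lower, while Sema4d, Sema4f, Sema4g and Sema6c were called in no comparison of a clone.

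Robo3 showed the largest difference of all members. Its product is the divergent Robo receptor that lets commissural axons cross the midline, and in mammals it is known not to bind Slits with high affinity. The gene lies at chr9:37415669-37433246 on the minus strand. Its promoter window (GRCm38.p6, chr9:37433126-37433425, minus strand) holds TAATTA, a core that LIM homeodomain proteins can bind. Binding was not tested. Windows of 2 matched members held TAATTA, or 3.77% of member windows, beside 5.29% of all windows. It stands in capitals below, ending 95 bases before the start:
Robo3 promoter: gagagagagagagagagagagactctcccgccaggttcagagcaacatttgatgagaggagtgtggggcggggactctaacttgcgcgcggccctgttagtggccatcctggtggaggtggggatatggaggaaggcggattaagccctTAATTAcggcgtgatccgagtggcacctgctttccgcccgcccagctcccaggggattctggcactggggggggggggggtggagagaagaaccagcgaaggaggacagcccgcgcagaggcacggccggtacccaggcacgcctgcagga
Robo3 had 21.4 and 23.8 FPKM in clone 1, 2.63 and 1.15 FPKM in clone 2, and 5.93, 10.0, 5.30 and 6.41 FPKM in WT. Clone 1 was above and clone 2 below every WT library, and WT replicate 2 was the highest of WT. In log2 the difference was 1.61 ± 0.29 in clone 1 (limma adjusted p = 0.0179) and -1.47 ± 0.29 in clone 2 (adjusted p = 0.0254), each against WT, and -3.08 ± 0.33 for clone 2 against clone 1 (adjusted p = 0.00117). In mean FPKM, clone 1 was 3.27 times WT and clone 2 was 0.273 times WT. The clone 1 call was lost without clone 1 replicate 2 or WT replicate 1 or 4 (adjusted p up to 0.1) and the clone 2 call without clone 2 replicate 2 or WT replicate 4 (up to 0.188), while the difference between the null lines passed in every setting tried.

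Robo1 and Robo2 were not higher in clone 1. Robo1, a main Slit receptor, had 16.4 and 12.9 FPKM in clone 1, 16.2 and 19.5 FPKM in clone 2, and 19.2, 16.6, 17.9 and 17.4 FPKM in WT. Clone 2 overlapped WT, clone 1 lay below it, and no test was passed (adjusted p = 0.121 in clone 1, 0.986 in clone 2 and 0.11 between the null lines). Robo2, also a Slit receptor, fell in clone 1 to 0.458 ± 0.0310 FPKM against 1.16 ± 0.195 FPKM in WT (limma adjusted p = 0.0355). That call was lost in 6 of 11 settings. These were a pseudocount of 4, no filter on low values, and leaving out either clone 1 replicate or WT replicate 1 or 3. Robo3 thus made up 55.9% to 64.0% of the summed Robo FPKM in clone 1 and 5.10% to 13.3% in clone 2, against 21.95% to 36.2% in WT. Robo4, the endothelial member, was at most 0.0532 FPKM.

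The Slit ligands were higher in clone 2 than in clone 1. Slit2 had 1.48 and 1.84 FPKM in clone 1, 4.92 and 5.61 FPKM in clone 2, and 2.87, 1.89, 3.47 and 2.20 FPKM in WT. Clone 2 was above and clone 1 below every WT library, and only the rise in clone 2 passed against WT (log2 0.82 ± 0.17, limma adjusted p = 0.0194, with -0.42 ± 0.17 and adjusted p = 0.118 in clone 1). That call was lost without clone 2 replicate 2 and without WT replicate 4, at an adjusted p of up to 0.195. Slit3 rose in clone 2 to 3.50 ± 0.149 FPKM against 2.34 ± 0.190 FPKM in WT (adjusted p = 0.0162). All 3 Slit genes were called higher in clone 2 than in clone 1, with Slit1 at 4.65 ± 0.195 FPKM in clone 2 and 3.73 ± 0.236 FPKM in clone 1 (adjusted p = 0.0417) and Slit2 higher by 1.24 ± 0.19 on the log2 scale (adjusted p = 0.00175). The Slit1 call was lost in 10 of 14 settings (adjusted p up to 0.187) and the Slit3 call in 5 of 14 (up to 0.132), while that of Slit2 was kept in all 14. Summed Slit FPKM was 7.99 ± 0.0337 in clone 1, 13.4 ± 0.833 in clone 2 and 9.48 ± 0.738 in WT. Summed Robo FPKM was 37.7 ± 0.804 in clone 1, 21.1 ± 1.88 in clone 2 and 25.9 ± 1.52 in WT. The Robo sum includes Robo3, at 22.6 ± 1.68 FPKM in clone 1, 1.89 ± 1.05 in clone 2 and 6.92 ± 2.12 in WT. The Slit receptors Robo1 and Robo2 were lowest in clone 1. Robo1 averaged 14.7 FPKM in clone 1, 17.9 in clone 2 and 17.8 in WT, and Robo2 0.458, 1.33 and 1.16.

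Netrin-1, the secreted attractant of commissural axons, had 33.9 and 30.3 FPKM in clone 1, 38.1 and 37.5 FPKM in clone 2, and 40.5, 36.8, 39.9 and 40.7 FPKM in WT. Clone 1 lay below all WT libraries and clone 2 overlapped them. Ntn1 fell in clone 1 (log2 -0.29 ± 0.06, limma adjusted p = 0.0168, at most 0.103 with 1 library left out) and showed no call in clone 2 (-0.06 ± 0.06, adjusted p = 0.551). Its attractive receptor Dcc had 1.93 and 1.29 FPKM in clone 1, 2.81 and 3.42 FPKM in clone 2, and 2.48, 1.69, 2.53 and 2.36 FPKM in WT. Dcc was above WT in both clone 2 libraries and overlapped WT in clone 1. It differed from WT in neither line by the test, and clone 2 exceeded clone 1 by 0.66 ± 0.17 on the log2 scale (adjusted p = 0.0142). The repulsive netrin receptor Unc5b fell in clone 2, to 3.06 ± 0.656 FPKM against 4.51 ± 0.544 FPKM in WT (log2 -0.44 ± 0.12, adjusted p = 0.0417), a call lost in 9 of 14 settings; its level in clone 1 was 5.94 ± 0.412 FPKM. Both Unc5a and Unc5b were lower in clone 2 than in clone 1 (adjusted p = 0.0466 and 0.00295). The Unc5a call was lost in 10 of 14 settings (adjusted p up to 0.291), and the Unc5b call was kept in all 14. Unc5c was not tested, at 0.177 and 0.208 FPKM in clone 1, 1.00 and 1.33 FPKM in clone 2 and 0.222 to 0.474 FPKM in WT.

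With both null lines pooled as a genotype, no member passed the test. Limma called 0 of 49 members in the 4 null against the 4 WT libraries, 7 had an unadjusted p under 0.05, as did 688 of all 14521 genes, and fits with line as a correlated block or with the mean of both clones in a fit of 3 groups also called 0. Among all genes 0.0551% were called, 0.00689% higher and 0.0482% lower. Efnb3 averaged 37.1 ± 23.3 FPKM in null and 34.6 ± 4.20 FPKM in WT (SD, n = 4 each), and Robo3 averaged 12.2 ± 12.01 FPKM in null and 6.92 ± 2.12 FPKM in WT. For Epha1, Sema3f and Slit3 all null libraries lay above all WT libraries, beside 1.03% of all tested genes. For Efnb2, Epha4, Sema3a, Sema4f and Sema4g all null libraries lay below, beside 3.22% of all tested genes. Sema4g, a transmembrane semaphorin, had 4.26 and 4.14 FPKM in clone 1, 4.08 and 3.98 FPKM in clone 2, and 4.80, 4.93, 5.16 and 4.77 FPKM in WT, and Sema4f averaged 0.978 ± 0.0424 FPKM in null and 1.20 ± 0.0547 FPKM in WT.

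The authors' deposited table gives a p-value per gene for null against WT from a test that is not named. After Benjamini-Hochberg adjustment over the 28134 genes whose deposited fold or p-value was not 1, these deposited p-values put 6 of the 67 members under 0.05, beside 220 genes in all. In the authors' deposited table the fold of null over WT was 1.53 for Epha1, 1.38 for Sema3f, 0.789 for Epha4, 0.843 for Efnb2 and 0.855 for Sema4g. The sixth was Plxna4, a plexin that pairs with neuropilins, with a fold of 0.382 in the authors' deposited table. Plxna4 was under the limit of 1 FPKM, with 0.0891 and 0.0519 FPKM in clone 1, 0.111 and 0.0686 FPKM in clone 2, and 0.204, 0.194, 0.249 and 0.221 FPKM in WT, so all null libraries were below all WT libraries. Robo3, with a fold of 1.69 in the authors' deposited table, had an adjusted p of 0.965 there.

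At most of these genes WT replicate 2 lay on the clone 1 side of the other WT libraries. It was the lowest WT library for 20 of the 25 members that were higher in clone 2 than in clone 1 (80.0%), beside 55.7% of all genes called that way, and the highest WT library for all 8 members that were lower in clone 2 (beside 78.3% of all such genes). On the log2 scale, it differed from the mean of the other WT libraries by a median of -0.11 over the first group, with a range of -0.53 to 0.12, and by a median of 0.26 over the second, with a range of 0.06 to 0.68. The gap was -0.53 for Nrp2 and 0.68 for Robo3. These are values of 1 library, given with no test.

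**Figure D4:**
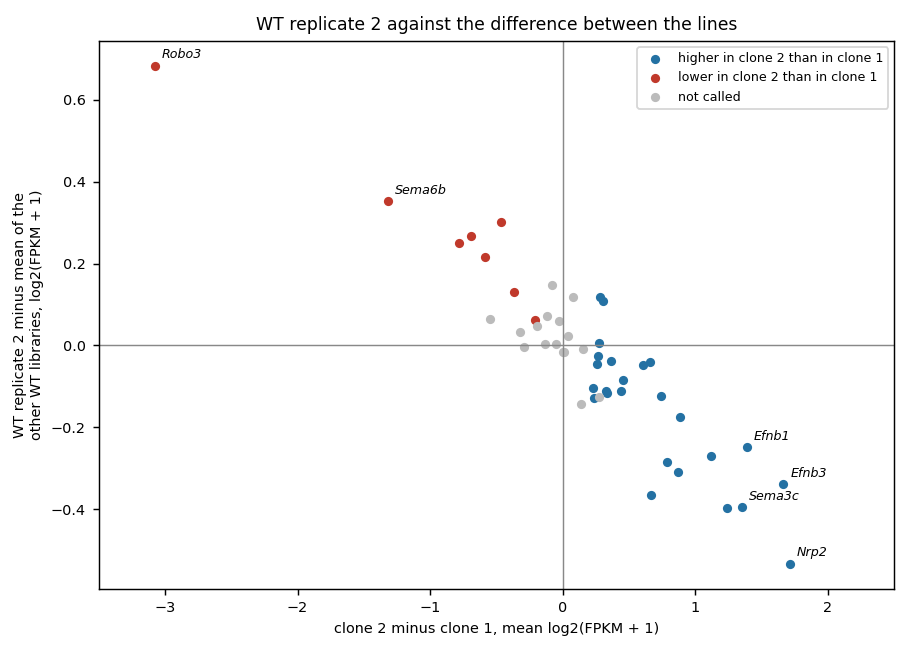
For each of the 49 tested guidance genes, WT replicate 2 minus the mean of the other 3 WT libraries against clone 2 minus clone 1, both in log2(FPKM + 1); blue genes were called higher in clone 2, red genes lower and grey genes were not called. All 8 red genes lie above 0 on the vertical axis, Robo3 at 0.68, and 22 of the 25 blue genes lie below 0, Nrp2 at -0.53.

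Markers of other cell states differed between the lines too. The 10 pluripotent and epiblast markers summed to 200.6 and 180.3 FPKM in clone 1, 87.2 and 75.4 FPKM in clone 2, and 109, 134, 105 and 118 FPKM in WT replicates 1 to 4. Of the 7 tested, 6 rose in clone 1 and 3 fell in clone 2, beside 4.16% of all genes higher in clone 1 and 6.96% lower in clone 2, and none of the 10 was listed at 0 in any library. The 10 epithelial and surface ectoderm markers summed to 97.2 and 82.9 FPKM in clone 1, 44.8 and 31.6 FPKM in clone 2, and 40.1, 58.9, 40.7 and 44.3 FPKM in WT. Of their 7 tested genes, 5 rose in clone 1 and 0 were called in clone 2, and Trp63 was listed at 0 in 5 libraries. WT replicate 2 had the highest WT sum in both lists. Of the 10 neural progenitor markers, 4 fell in clone 1, beside 11.4% of all tested genes. In clone 2, 5 rose and 1 fell, beside 7.06% higher and 6.96% lower among all tested genes. The 1 that fell was Pax6, at 14.5 ± 4.78 FPKM in clone 2 against 38.6 ± 1.68 FPKM in WT (limma adjusted p = 0.005). Of the 7 tested neuronal markers, 0 were called in clone 1. In clone 2, 0 rose and 2 fell, beside 6.96% of all tested genes lower. These were Stmn2, at 20.2 ± 4.30 FPKM in clone 2 against 32.1 ± 3.34 FPKM in WT (limma adjusted p = 0.0179), and Elavl3, at 1.97 ± 0.0975 FPKM against 2.95 ± 0.206 FPKM (adjusted p = 0.0251). In clone 1, Stmn2 averaged 34.8 FPKM and Elavl3 3.69 FPKM. Neural crest markers summed to 17.8 to 22.5 FPKM in clone 1, 16.6 to 18.6 FPKM in clone 2 and 17.9 to 19.1 FPKM in WT. Of the 7 mesoderm markers in the table and of the 7 endoderm markers, 6 each were under 1 FPKM in every library; the mesoderm sum was 7.80 to 8.43 FPKM in clone 1, 4.39 to 4.68 FPKM in clone 2 and 4.67 to 6.37 FPKM in WT, and the endoderm sum, nearly all Cxcr4, was 28.2 to 29.3 FPKM in clone 1, 41.7 to 46.6 FPKM in clone 2 and 41.5 to 45.1 FPKM in WT. In bulk libraries fewer cells of a type and less RNA per cell cannot be told apart, and the part of these markers in the guidance gene differences was not tested.

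Genes that act beside or below the members were followed as 2 groups. Among 15 tested ligands and receptors of other guidance systems, 2 rose and 8 fell in clone 1, and 2 rose and 3 fell in clone 2. Over all tested genes, 4.16% were called higher and 11.4% lower in clone 1, and 7.06% higher and 6.96% lower in clone 2. The median log2 difference of the 15 was -0.23 in clone 1 and 0.05 in clone 2. Flrt3, a membrane protein that binds Unc5 and Robo receptors, was higher in clone 2, at 49.4 ± 7.37 FPKM, and lower in clone 1, at 17.4 ± 0.635 FPKM, than in WT, at 26.5 ± 2.80 FPKM (limma adjusted p = 0.00464 and 0.0142). The chemokine receptors Cxcr4 and Ackr3, which steer migrating neurons and interneurons, fell in clone 1. Cxcr4 had 27.9 ± 0.454 FPKM in clone 1 and 42.4 ± 1.99 FPKM in WT (adjusted p = 0.00195), and Ackr3 had 1.09 ± 0.0285 FPKM in clone 1 and 2.68 ± 0.245 FPKM in WT (adjusted p = 0.00437).

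Of 48 tested cytoplasmic effectors and regulators, 2 rose and 7 fell in clone 1 and 3 rose and 4 fell in clone 2, with median log2 differences of -0.09 and -0.01. These counts lie close to the shares of all tested genes just given. Srgap1, a GTPase-activating protein that binds the tail of Robo receptors, rose in clone 2 to 8.93 ± 1.22 FPKM against 3.98 ± 0.598 FPKM in WT (limma adjusted p = 0.00441) and stood at 3.33 ± 0.155 FPKM in clone 1. Crmp1, a mediator of Sema3a signalling, and the kinase Pak1, an effector of Rac and Cdc42, fell in clone 2, Crmp1 to 64.0 ± 4.72 FPKM against 82.3 ± 1.18 FPKM in WT (adjusted p = 0.00453) and Pak1 to 25.5 ± 0.410 FPKM against 33.3 ± 1.45 FPKM in WT (adjusted p = 0.00706). Tiam1, a Rac activator, fell in clone 1 to 5.86 ± 0.595 FPKM and rose in clone 2 to 14.9 ± 2.56 FPKM, against 10.9 ± 0.604 FPKM in WT (adjusted p = 0.00375 and 0.0303). Pak3, a kinase of the same family as Pak1, fell in both lines, to 5.46 ± 1.19 FPKM in clone 1 and 7.51 ± 0.253 FPKM in clone 2, against 11.1 ± 1.42 FPKM in WT (adjusted p = 0.00591 and 0.0413). Without clone 1 replicate 2, the 2 groups together had 1 gene called higher and 3 lower in clone 1, in place of 4 and 15. In null against WT, 0 genes of either group were called.

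The promoter windows of the members were rich in GC. Of the 49 tested members, 41 had an entry in the RefSeq promoter table, with 53 windows of 300 bases whose median GC content was 65.0%, beside 52.7% over all 32851 windows. The GC box GGGCGG, searched on both strands, stood in 71.7% of member windows and in 35.7% of all windows. All windows were not limited to genes with a mean of at least 1 FPKM, as the member windows were. TAATTA was in the windows of 2 of the 41 members, or 3.77% of member windows, beside 5.29% of all windows. ATCAAAG was in those of 1 member (1.89%, beside 3.73%) and the E-box CACGTG in those of 3 (5.66%, beside 7.15%). The windows of Nrp2 and Robo3 printed above have a GC content of 70.7% and 63.3%. These are the 2 members with the largest log2 differences between the null lines. The other member with TAATTA is not shown. A match describes letters in this window only.

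The 18 members under the limit were Epha2, Epha3, Epha5, Epha6, Epha8, Nrp1, Ntn4, Ntn5, Plxna4, Plxnb3, Robo4, Sema3d, Sema3e, Sema3g, Sema4a, Sema7a, Unc5c and Unc5d. None exceeded 1.37 FPKM in any library, and 3 of them were listed at 0 in at least 1 library. Sema3e and Sema3g, which are known from blood vessels, reached at most 0.185 and 0.0357 FPKM.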

How the data were processed

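Poly(A) RNA was measured in 8 libraries. Per the file headers, the authors deposited FPKM values per library, and a fold of null over WT with its p-value. The authors' 4 columns of means were not used. The submitters' processing notes name TopHat2, Cufflinks, SAMtools, FastQC and DESeq2, with GRCm38 and mm10, but give no roles. The sources used here do not give the use of strand in counting, and reads of antisense or overlapping genes may therefore be shared. Columns were matched to groups by header; null columns name a clone and a number within it.

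From the FPKM values, limma 3.58.1 in R 4.3.3, with trend and robust moderation, was fitted to log2(FPKM + 1) for 14521 genes, those averaging at least 1 FPKM. That scale understates changes of low genes. Each clone was compared in a fit of 3 groups that share a spread, and null with WT in a fit of 2 groups. Adjustment was by Benjamini and Hochberg over all of them. The fit was also run on simulated data drawn with the mean and SD of WT. Those data held no spread between clones, so the run says nothing about clone differences. Depth per library is unknown, and no count model could be fitted to FPKM. Coordinates are from GENCODE M21 (GRCm38) and promoters from RefSeq.

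Every member past the threshold is named. Library values are given for the 8 largest called differences of each clone, the 5 highest members of WT, and Dcc, Ntn1, Robo1, Slit2, Nrp1 and Sema3a; other guidance genes by the 4 smallest adjusted p per clone. Efna5, Sema3f, Sema4g, Plxna4, Unc5c and other members outside this rule were added after their values were seen. The members, gene lists and rules were chosen with earlier results of these data known. Alternatives were other pseudocounts, filters, scalings and moderation, single libraries left out, and other groupings of the fit.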

Additional observations from a re-analysis of the deposited data

Results flagged for a closer look

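Clone 2 and clone 1 carry the same deletion, and 33 members differed between them by the limma test of the difference itself, beside 39.9% of all tested genes. Of these calls 16 were lost in at least 1 setting: Dcc, Efna3, Efna4, Efna5, Ephb1, Ephb6, Ntn1, Plxna2, Plxna3, Plxnb1, Robo2, Sema4b, Sema6a, Slit1, Slit3 and Unc5a. Values are clone 2 minus clone 1 in log2(FPKM + 1).

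Ligands higher in clone 2 were Efnb3 (1.66), Efnb1 (1.39), Sema3c (1.35), Slit2 (1.24), Efna2 (0.88), Sema6d (0.87), Sema5b (0.79), Sema5a (0.74), Sema4c (0.45), Slit3 (0.32), Efna5 (0.27), Sema4b (0.27), Slit1 (0.26), Efna4 (0.23) and Ntn1 (0.23). Receptors higher in clone 2 were Nrp2 (1.71), Plxnc1 (1.12), Dcc (0.66), Robo2 (0.66), Ephb2 (0.60), Ephb6 (0.44), Ephb4 (0.37), Plxnb1 (0.33), Plxna2 (0.31) and Plxna3 (0.28). Lower in clone 2 were the receptors Robo3 (-3.08), Unc5b (-0.78), Epha10 (-0.70), Unc5a (-0.47) and Ephb1 (-0.21) and the ligands Sema6b (-1.32), Efna3 (-0.59) and Sema6a (-0.37).

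In the WT group of 4, the highest or lowest library passed Dixon's critical value for 0 of the 49 tested members; chance alone gives about 1 in 20.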

How the results depend on the processing

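Leaving out 1 library at a time gave 0 to 4 members higher and 4 to 15 lower in clone 1 against WT, 0 to 9 higher and 0 to 7 lower in clone 2 against WT, 14 to 24 higher and 4 to 8 lower in clone 2 against clone 1, and 0 in null against WT. The lone library of a clone was then assumed to vary like the other groups. In clone 2 against WT, 7 members were lower with a pseudocount of 0.1 and 10 after rescaling by the median ratio. In clone 2 against clone 1, 4 were lower at a mean of at least 5 FPKM, where fewer genes were tested, and a fit of only these 2 groups gave 15 higher and 5 lower. The cause of the other shifts was not tested, and shares of all tested genes are given for the main fit only. The other guidance ligands and receptors and the effectors together, without clone 1 replicate 2, numbered 1 higher and 3 lower in clone 1 against WT. No call reversed. Held in every setting in which the gene was tested were 4 of 17 calls in clone 1, 0 of 12 in clone 2 and 17 of 33 between the clones. No paired analysis was possible because null columns are numbered within a line and cannot be tied to the numbered sample titles. With unknown depth no detection limit can be set for a gene, and the spread within a clone rests on 2 libraries.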
